A study of Mus musculus with 8 samples.

Results

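The Krüppel-like factor (KLF) family was followed in liver through the 10 genes Klf2, Klf3, Klf4, Klf6, Klf9, Klf10, Klf11, Klf12, Klf13 and Klf15, chosen by symbol from the 24197 genes of the authors' expression table. RNA was taken from livers of 11-week-old male CD-1 mice, an outbred strain, whose pituitary, the source of circulating growth hormone (GH), had been removed at 7 weeks of age. The control group, called Hypox, is described both as untreated and as given vehicle. The other groups had received an intraperitoneal injection of recombinant rat GH, 125 ng per g of body weight, and were killed 30, 90 or 240 min later. Hypophysectomy, shared by all 4 groups, also removes the pituitary hormones that drive the adrenal and thyroid glands. Each group held 2 libraries, each from pooled RNA, so the spread is that between pools. The labels name 8 RNA samples pooled into the 2 replicates of a condition, and the authors' legend names pools of 4. All times were set against the same Hypox libraries and none had a control group of its own. GH therefore cannot be told apart from injection, handling or time of day. A Hypox pool carries another experiment number in its name than the other 7 libraries, and which of the 2 recovered Hypox libraries it is could not be told.

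KLF proteins are transcription factors that bind GC-rich and CACCC sequences through zinc fingers near their C-terminus, and their N-terminal parts recruit different cofactors. KLF2, KLF4 and KLF6 mostly activate transcription, KLF3 and KLF12 bind the corepressor CtBP, and KLF9, KLF10, KLF11 and KLF13 bind the corepressor SIN3A. KLF15 is known in liver as a factor of fasting, gluconeogenesis and amino acid breakdown, and several family members, among them Klf9, Klf10 and Klf15, are known to respond to glucocorticoids, growth signals or the circadian clock.

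Klf12 and Klf13 fell 240 min after GH, and no other member passed the test against Hypox in exonic reads at any time. Klf12 was 2.59-fold lower and Klf13 2.08-fold lower than in Hypox. Between 90 and 240 min, Klf2, Klf6, Klf12 and Klf13 were called lower and Klf10 higher. Only the Klf12 call held in all 11 alternatives, which changed the processing or left out a library, and that of Klf2 was lost in 9. In intronic reads, which come largely from transcripts not yet spliced, Klf12 and Klf13 were called lower at 240 min. Intronic Klf13 was also called lower at 90 min, a call that was lost in 5 of 11 alternatives. Klf15, the most abundant member per exon length, had its lowest exonic level at 90 min without passing the test used here, and it is called lower at that time in the authors' deposited table.

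These calls rest on whole reads per library, recovered by arithmetic from the authors' group means, and on limma over all 8 libraries, with p-values adjusted by Benjamini and Hochberg's method across every gene tested. A gene was called at an adjusted p under 0.05. In exonic reads all 10 members passed the filter of 10 reads in 2 libraries, and in intronic reads 8 did. Klf2, with 1 to 7 intronic reads per library, and Klf4, with 0 to 4, did not. At 30 min 0 of 10 members were called by limma in exonic reads, where 0.0683% of 13169 genes were. Limma-voom called 0 as well, and 1 member, Klf15, had an unadjusted p under 0.05. At 90 min 0 of 10 were called against Hypox, where 0.843% of all genes were, 0 by limma-voom, and 3 members had an unadjusted p under 0.05. At 240 min 2 of 10 were called, both lower, where 11.3% of all genes were called and 5.54% were called lower. Against 90 min, 5 of 10 members differed at 240 min, 4 lower and 1 higher, where 5.26% of all genes did. Between 30 and 90 min 0 members were called by limma or limma-voom, 2 had an unadjusted p under 0.05, and the share over all genes was 0%.

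The median log2 fold change of the members was -0.41 at 240 min against Hypox, beside -0.03 over all genes tested, and -0.14 at 90 min beside -0.02. Both 240 min libraries lay below both Hypox libraries for 7 members and above them for Klf10, a separation that 56% of all genes showed in either direction.

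Depth was 15935303 to 34452570 mapped reads per library, of which 25.1% to 26.6% were exonic reads of genes and 13.6% to 16% intronic reads. The response to GH was checked with Cish, Socs2 and Igf1, which are known STAT5 targets. Their intronic reads were called higher at 30 min, 3 of 3, with log2 fold changes of 2.71 to 3.41. In exonic reads none of the 3 passed at 30 min, at 0.88 to 2.74, and all passed at 240 min. The summed exonic level of the 3 was 44.8 to 52.2 CPM in Hypox and 65.1 to 155 CPM at 30 min, where the libraries lay far apart. At 90 min Igf1 did not pass in exons (1.08, limma, adjusted p = 0.136), and the Socs2 call was lost in 5 of 11 alternatives. In introns 2 of the 3 were called at 240 min. Of 9 hepatocyte markers, 0 were at 0 reads, and their summed level was 26356 to 26866 CPM in Hypox and 20170 to 21755 CPM at 240 min. Abundant markers weigh most in this sum. In exons 0 of the 9 were called at 240 min against Hypox, at log2 fold changes of -0.52 to 0.59 with a median of -0.08. In introns 2 of the 9 were called higher and 1 lower.

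Per exon length, Klf15 was the most abundant member in Hypox, and Klf4 the least abundant. Taken as FPKM, which divides reads by exon length and mapped reads, the 2 Hypox libraries gave 19.1 and 19.4 for Klf15, 6.33 and 6.77 for Klf3, 4.59 and 4.30 for Klf12, and 3.54 and 4.21 for Klf9. Below these came Klf13 at 2.23 and 1.82, Klf6 at 1.51 and 1.38, Klf2 at 0.991 and 1.26, and Klf10 at 1.01 and 0.895. Klf11 at 0.700 and 0.674 and Klf4 at 0.315 and 0.270 were lowest. In this order only the neighbours Klf2 and Klf10 overlapped in Hypox. At 90 min Klf15, at 9.86 and 11.5 FPKM, still stood first, while Klf12 had 4.37 and 5.04 and Klf9 4.11 and 4.15. By 240 min Klf12, at 2.20 and 1.45 FPKM, had passed below Klf9, at 3.38 and 2.94, and overlapped Klf10, at 1.67 and 1.30.

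**Figure D1:**
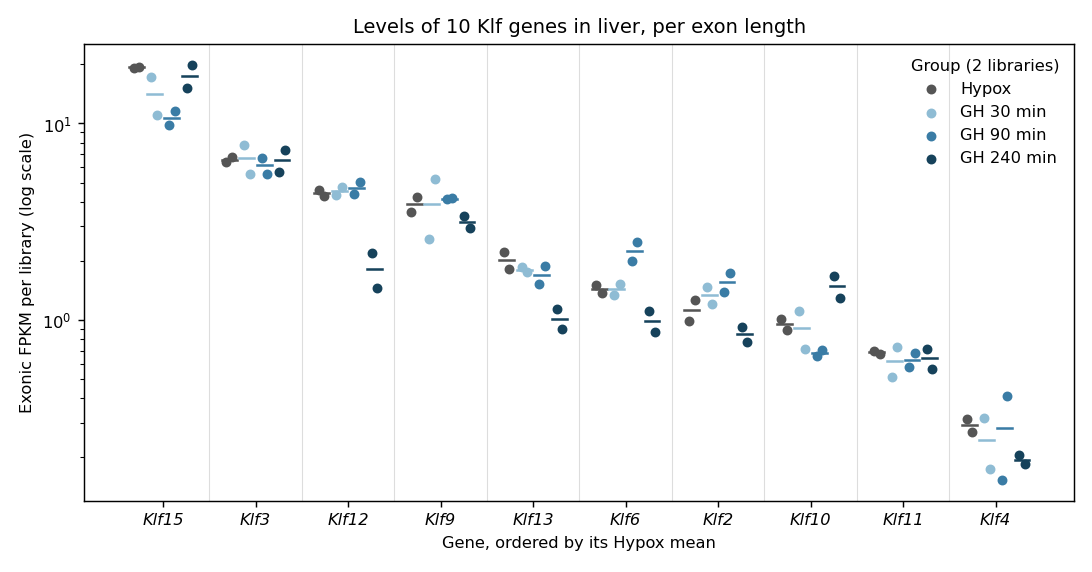
Exonic level of each member per library, as FPKM on a log axis, with genes ordered by their Hypox mean; points are libraries, short bars are group means and colours are groups. Klf15 lies highest in every group, and the 240 min points of Klf12 and Klf13 lie below their other points.

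The 250 bases before the start in RefSeq are shown for 4 members. They are Klf12 and Klf13, which fell at 240 min, Klf15, which is the most abundant member, and Klf9, whose window is the only 1 of the 9 searched with a STAT-type motif. They come from build GRCm38.p6, which is not the build of the expression table, at chr14:100149797-100150046 on the minus strand, chr7:63938916-63939165 on the minus strand, chr6:90462326-90462575 on the plus strand and chr19:23140976-23141225 on the plus strand. Each is printed 5′ to 3′, and capitals mark the motifs TTCNNNGAA (bound by STAT factors such as STAT5), CACGTG (an E-box, bound by clock and other factors), GGGCGG and CACCC (bound by SP and KLF factors), searched on both strands.
Klf12: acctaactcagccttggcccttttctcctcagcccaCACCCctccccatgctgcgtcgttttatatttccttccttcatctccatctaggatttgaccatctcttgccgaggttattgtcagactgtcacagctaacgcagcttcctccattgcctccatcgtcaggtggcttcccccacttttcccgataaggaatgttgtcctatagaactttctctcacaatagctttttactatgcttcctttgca
Klf13: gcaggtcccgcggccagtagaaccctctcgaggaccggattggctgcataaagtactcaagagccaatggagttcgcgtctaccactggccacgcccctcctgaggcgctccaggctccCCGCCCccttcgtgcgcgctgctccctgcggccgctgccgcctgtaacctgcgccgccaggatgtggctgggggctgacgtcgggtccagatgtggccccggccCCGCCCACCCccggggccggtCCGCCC
Klf15: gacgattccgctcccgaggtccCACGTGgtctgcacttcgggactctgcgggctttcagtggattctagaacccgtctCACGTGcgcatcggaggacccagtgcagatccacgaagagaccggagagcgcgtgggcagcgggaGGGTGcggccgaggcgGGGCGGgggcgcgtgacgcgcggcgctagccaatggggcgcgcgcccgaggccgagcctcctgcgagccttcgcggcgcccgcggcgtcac
Klf9: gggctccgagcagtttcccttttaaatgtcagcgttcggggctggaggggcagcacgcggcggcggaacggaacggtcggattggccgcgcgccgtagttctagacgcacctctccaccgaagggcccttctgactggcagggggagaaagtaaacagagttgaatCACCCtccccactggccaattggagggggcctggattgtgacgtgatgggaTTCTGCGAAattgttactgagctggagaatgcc

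The table of promoters held 9 of the 10 members, all but Klf10. TTCNNNGAA was found in 1 of the 9, Klf9, where it begins 33 bases before the start, and in 7.02% of 32851 promoter windows. CACGTG was found in 4 of the 9, Klf4, Klf6, Klf11 and Klf15, and in 6.02% of all windows. Klf15 held it at 2 places, 228 and 172 bases before the start. GGGCGG was found in 7 of the 9 and in 32.7% of all windows, and CACCC in 6 of the 9 and in 52.0%. The Klf12 window held a CACCC match 214 bases before the start and none of the other motifs. In Klf13 the CACCC match shares bases with a GGGCGG match.

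Of the activators, Klf6 changed most. Klf6, an early-response gene of many cell types including activated stellate cells, had 6.29 and 6.0 scaled CPM in the Hypox libraries, deeper library first here and below (CPM of mapped reads, divided by the scaling factor of the library). It had 5.63 and 7.00 at 30 min, 8.38 and 10.3 at 90 min, then 4.46 and 3.54 at 240 min. The 90 min libraries were above and the 240 min libraries below all others. From 90 to 240 min Klf6 fell 2.30-fold (log2 fold change -1.20 ± 0.18, limma standard error, adjusted p = 0.00632). Against Hypox it did not pass at 90 min (0.59 ± 0.18, adjusted p = 0.235) or at 240 min (-0.62 ± 0.18, adjusted p = 0.0513). Without the shallower 90 min library the change from 90 to 240 min was -1.06 and did not pass (adjusted p = 0.0672), and without the deeper 240 min library the change against Hypox was -0.78 and passed (adjusted p = 0.0495). In introns, with 12 to 45 reads per library, Klf6 also fell from 90 to 240 min (-1.26 ± 0.30, adjusted p = 0.0211), a call that was lost without either 90 min library or the deeper 240 min library (adjusted p = 0.0718 to 0.131). Of 7 stellate markers, with exonic log2 fold changes of -0.40 to 0.38 at 240 min against Hypox, none passed against either group, and their summed level was 134 to 136 CPM in Hypox and 121 to 122 CPM at 240 min.

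Klf2, a flow-responsive factor of endothelial cells, also fell between 90 and 240 min. Its exonic value was 1.78 and 2.36 scaled CPM in Hypox, 2.65 and 2.39 at 30 min, 2.52 and 3.07 at 90 min, then 1.60 and 1.36 at 240 min. Both 240 min libraries were the lowest of the 8. From 90 to 240 min Klf2 fell 1.83-fold (-0.87 ± 0.22, adjusted p = 0.0488), and it did not pass against Hypox at 240 min (-0.45 ± 0.22, adjusted p = 0.219). The call between 90 and 240 min was lost in 9 of 11 alternatives, among them library totals only, a pseudocount of 1 and limma-voom. Leaving out any of the 4 libraries also ended it, with log2 fold changes of -1.01 to -0.74. With 30 to 81 exonic reads per library, Klf2 is measured on few reads. Sinusoidal endothelial markers were also lower at 240 min. Their summed level was 229 to 230 CPM in Hypox, 204 to 219 at 90 min and 168 to 176 at 240 min, 0 of 11 were at 0 reads, and 1 of 11, Stab2, was called lower from 90 to 240 min. Against Hypox 3 of 11 were called lower at 240 min, Stab2, Eng and Kdr. The Eng and Kdr calls were each lost in 6 of 11 alternatives, among them library totals only and leaving out any of the 4 libraries, with adjusted p up to 0.180 and 0.159. Stab2 was lost in 1, without the shallower Hypox library (adjusted p = 0.0668). Their part in the Klf2 result was not tested, and in bulk tissue fewer cells of a type and less RNA per cell cannot be told apart.

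Klf4, known from reprogramming to pluripotency and from endothelium and epithelia, was the lowest member, with 11 to 33 exonic reads per library. It had 0.948 and 0.849 scaled CPM in Hypox and 0.594 and 0.545 at 240 min, without passing (-0.58 ± 0.41, adjusted p = 0.402). Its 90 min libraries were the lowest and the highest of all 8, at 0.467 and 1.23.

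**Figure D2:**
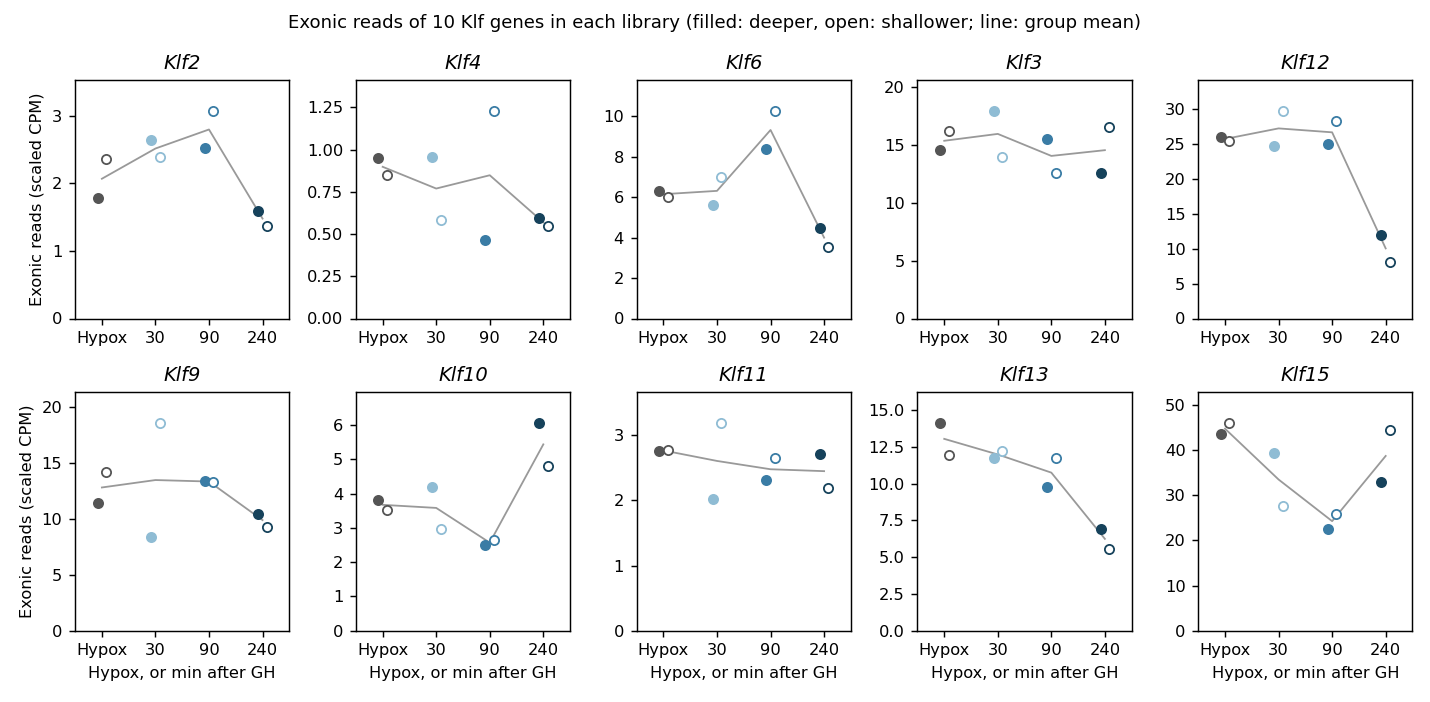
Exonic reads of each member in each library, as scaled CPM on an axis from 0, by group; filled points are the deeper and open points the shallower library of a group, and the line joins group means. Klf12 and Klf13 drop at 240 min, Klf6 and Klf2 peak at 90 min, Klf10 and Klf15 have their lowest mean at 90 min, and the 2 libraries of Klf9 at 30 min lie far apart.

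Klf12, whose product represses through CtBP and was first described as a repressor of AP-2 alpha, had the largest change among the members. The gene spans chromosome 14 from 100269862 to 100549015 in build mm9, with 5731 exonic and 273423 intronic bases. Its exonic value was 26 and 25.4 scaled CPM in Hypox, 24.7 and 29.7 at 30 min, 25 and 28.3 at 90 min, then 12 and 8.09 at 240 min. The 6 libraries up to 90 min lay close together and both 240 min libraries lay far below them. Klf12 fell by 1.38 ± 0.18 on the log2 scale against Hypox (adjusted p = 0.00215) and by 1.43 ± 0.18 against 90 min (adjusted p = 0.00352). The authors' deposited table gives a ratio of 0.395 to Hypox at 240 min (authors' adjusted p = 3.57e-07).

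Intronic reads of Klf12 also fell at 240 min. Their level was 102 and 128 scaled CPM in Hypox, 126 and 146 at 30 min, 108 and 71.9 at 90 min, then 37.0 and 29.1 at 240 min. The shallower 90 min library already lay below the other 5 early libraries, and both 240 min libraries lay lower still. In exons that same 90 min library was the second highest of the 8. Against Hypox the intronic log2 fold change at 90 min was -0.38 ± 0.22 (adjusted p = 0.391) and the exonic 0.05 ± 0.18 (adjusted p = 0.975), and the difference between them did not pass (0.43 ± 0.27, adjusted p = 0.604). Intronic reads fell 3.48-fold against Hypox at 240 min (-1.80 ± 0.22, adjusted p = 0.00126), and the authors' deposited table gives a ratio of 0.289 (authors' adjusted p = 5.30e-12). Each Klf12 call at 240 min, exonic or intronic, against Hypox or 90 min, held in all 11 alternatives tried for it. For the calls against Hypox these include leaving out either Hypox library.

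Klf3, the other CtBP-binding repressor, known from erythroid and fat cells, did not pass in any comparison. Its exonic value was 14.5 and 16.2 scaled CPM in Hypox, 17.9 and 13.9 at 30 min, 15.5 and 12.5 at 90 min, then 12.5 and 16.5 at 240 min. The groups overlapped at every time, and the log2 fold change at 240 min was -0.09 ± 0.18 (adjusted p = 0.788).

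Among the SIN3A-binding repressors, Klf13 had its lowest level and Klf10 its highest at 240 min. Klf13, known as a regulator of the chemokine RANTES in T cells, spans chromosome 7 from 71031237 to 71083801 in mm9. It overlaps E030018B13Rik in the table, and since the sources used here do not say whether counting used the strand, reads may be shared between them. Its exonic value was 14.1 and 12 scaled CPM in Hypox, 11.8 and 12.2 at 30 min, 9.75 and 11.7 at 90 min, then 6.91 and 5.59 at 240 min. Both 240 min libraries lay below all others. The higher 90 min library, at 11.75, lay just under the lowest earlier library, at 11.77. Klf13 fell by 1.05 ± 0.16 on the log2 scale against Hypox at 240 min (adjusted p = 0.00401) and by 0.78 ± 0.16 against 90 min (adjusted p = 0.0222). The change against Hypox held in all 11 alternatives. That against 90 min was lost without either 90 min library or the shallower 240 min library, at log2 fold changes of -0.91 to -0.62 and adjusted p = 0.0694 to 0.162. The authors' deposited table gives a ratio of 0.484 to Hypox at 240 min (authors' adjusted p = 7.93e-05).

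Intronic reads of Klf13 were called lower earlier than its exonic reads. They were at 16 and 14.5 scaled CPM in Hypox, 10.8 and 12.4 at 30 min, 10.5 and 8.90 at 90 min, then 8.00 and 7.14 at 240 min. All 6 libraries after GH lay below both Hypox libraries. The log2 fold change was -0.39 ± 0.16 at 30 min (adjusted p = 0.295), -0.65 ± 0.16 at 90 min (adjusted p = 0.0322) and -1.0 ± 0.16 at 240 min (adjusted p = 0.00512). The 90 min call was lost with library totals only. It was also lost when any of the 4 libraries compared was left out, at -0.76 to -0.53. The authors' deposited table gives a ratio of 0.645 at 90 min and does not call it (authors' adjusted p = 0.0505). The 240 min call held in all 11 alternatives. Whether the exonic and intronic changes of Klf13 differ was tested directly, and the difference was 0.37 ± 0.21 at 90 min (adjusted p = 0.553).

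Klf10, first described as a gene induced early by TGF-beta, was the 1 member called higher between times. It had 3.82 and 3.52 scaled CPM in Hypox, 4.19 and 2.97 at 30 min, 2.49 and 2.64 at 90 min, then 6.05 and 4.82 at 240 min. The 90 min libraries were the lowest and the 240 min libraries the highest of the 8. Klf10 rose 2.06-fold from 90 to 240 min (1.04 ± 0.20, adjusted p = 0.0193), and it did not pass against Hypox at 90 min (-0.50 ± 0.20, adjusted p = 0.450) or 240 min (0.55 ± 0.20, adjusted p = 0.114). The rise was lost when any of the 4 libraries was left out, at 0.88 to 1.21 with adjusted p = 0.0502 to 0.112. Its introns, with 5 to 42 reads per library, did not pass at any time.

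Klf9, a glucocorticoid- and thyroid hormone-induced gene that overlaps Mir1192 in the table, did not pass in any comparison. Its exonic value was 11.4 and 14.2 scaled CPM in Hypox, 8.39 and 18.6 at 30 min, 13.4 and 13.3 at 90 min, then 10.5 and 9.31 at 240 min. The 30 min libraries were the lowest and the highest of the 8, so the log2 fold change at that time, -0.03 ± 0.28, averages libraries that lie on both sides of Hypox. Klf11, a TGF-beta-inducible relative of Klf10, had 2.02 to 3.18 scaled CPM over the 8 libraries and log2 fold changes of -0.18 to -0.12 against Hypox, none of which passed.

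Klf15 had its lowest exonic level at 90 min. The gene spans chromosome 6 from 90412620 to 90425203 in mm9. Its exonic value was 43.5 and 45.9 scaled CPM in Hypox, 39.3 and 27.7 at 30 min, 22.6 and 25.9 at 90 min, then 33 and 44.3 at 240 min. All 30 and 90 min libraries lay below both Hypox libraries, and the 240 min libraries overlapped them. The log2 fold change at 90 min was -0.88 ± 0.18, a 1.84-fold lower mean, and missed the threshold (adjusted p = 0.0606). From 90 to 240 min it was 0.66 ± 0.18 (adjusted p = 0.0641), and without the deeper 240 min library 0.87 (adjusted p = 0.0421). The authors' deposited table calls Klf15 lower at 90 min, with a ratio of 0.547 (authors' adjusted p = 1.27e-05). That table calls 0.904% of 18359 genes lower at this time. Fitted with the Hypox and 90 min libraries alone, limma also called it (adjusted p = 0.0101).

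In its introns Klf15 was already low at 30 min. Intronic reads were at 38.5 and 37.5 scaled CPM in Hypox, 22.1 and 14.5 at 30 min, 17.1 and 24.8 at 90 min, then 28.2 and 52.3 at 240 min. The 30 and 90 min libraries lay below Hypox, and the 240 min libraries lay on both sides of it. The log2 fold change was -1.08 ± 0.29 at 30 min (adjusted p = 0.0809) and -0.88 ± 0.29 at 90 min (adjusted p = 0.0952). Without the deeper 30 min library the 30 min value was -1.38 and passed (adjusted p = 0.0368). From 90 to 240 min it was 0.90 ± 0.29 (adjusted p = 0.0697), and without the deeper 240 min library 1.34 (adjusted p = 0.0316). The authors' deposited table calls its introns lower at 30 min, with a ratio of 0.483 (authors' adjusted p = 0.00735), and at 90 min, with 0.551 (authors' adjusted p = 0.00314), where it calls 1.38% and 4.37% of 16720 genes lower.

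**Figure D3:**
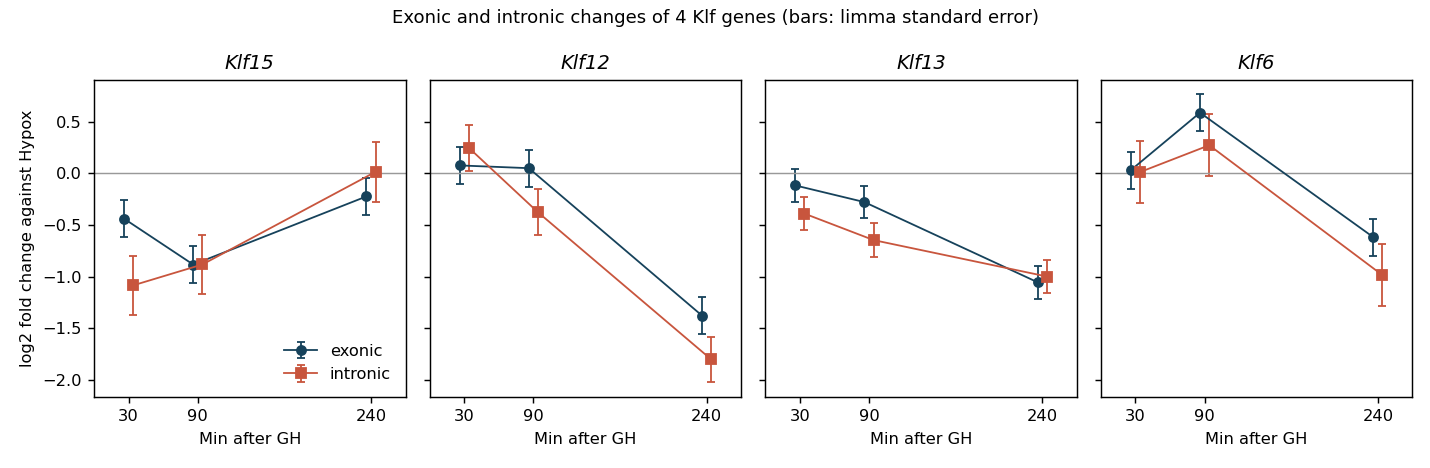
log2 fold change against Hypox of exonic (circles) and intronic (squares) reads by time after GH for Klf15, Klf12, Klf13 and Klf6; bars are limma standard errors and points are set apart sideways for clarity. Klf15 is lowest at 30 to 90 min, with introns at -1.08 and exons at -0.44 at 30 min, while Klf12, Klf13 and Klf6 are lowest at 240 min in both kinds of read.

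Over the 8 members tested in introns, 0 were called by limma at 30 min, 0 by limma-voom and 2 at an unadjusted p under 0.05, where 2.6% of 12034 genes were called. Klf13 was the 1 called at 90 min, where 7.74% of all genes were. At 240 min Klf12 and Klf13 were called, where 11.2% were, and between 90 and 240 min Klf12 and Klf6, where 11.6% were. The difference between exonic and intronic change was tested for these 8, and limma called 0 at 30, 90 and 240 min. Shares over 11317 genes were 0.0795%, 0.574% and 0.0795%, and unadjusted p under 0.05 was reached by 1, 0 and 0 members. The 1 was Klf15 at 30 min, whose exonic change lay 0.65 ± 0.22 above its intronic change (unadjusted p = 0.0190, adjusted p = 0.322).

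**Figure D4:**
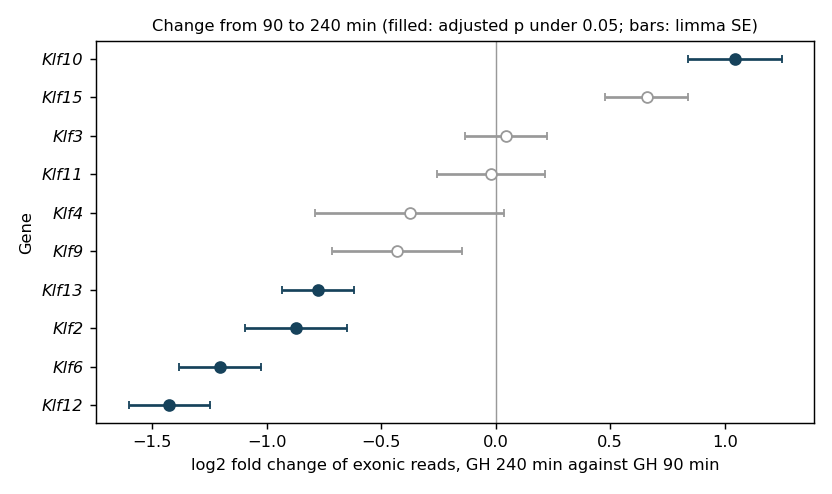
log2 fold change of exonic reads from 90 to 240 min after GH for each member; bars are limma standard errors and filled points have an adjusted p under 0.05. Klf12, Klf6, Klf2 and Klf13 lie on the lower side and Klf10 alone on the higher side among the filled points.

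Genes whose exonic pattern was most like that of a called member were taken by Pearson's r over the 8 libraries among 9244 genes, as a description. The points share 8 libraries in 4 groups, so a common step at a time raises every r. For Klf12 these were the iron exporter gene Slc40a1 (r = 0.990), Fam210a (0.984) and Psd3 (0.980). Slc40a1 had 48.1 and 50.9 scaled CPM in Hypox and 31.7 and 25.3 at 240 min (log2 fold change -0.80 ± 0.13, adjusted p = 0.00469), a smaller fall than that of Klf12. For Klf13 they were Gm7102 (0.987), 5031439G07Rik (0.984) and the ATP-gated channel gene P2rx4 (0.983). For Klf6 they were Rbbp8 (0.976), Rnf169 (0.974) and Ccnl1 (0.974), and for Klf2 Tnfrsf19 (0.974), 5330417C22Rik (0.972) and Colec12 (0.961). For Klf10 they were the actin-nucleation gene Actr3 (0.981), Pitpna (0.959) and Fiz1 (0.954). From 90 to 240 min Actr3, Pitpna and Fiz1 had log2 fold changes of 0.26, 0.25 and 0.32, beside 1.04 for Klf10. None of them passed (limma, adjusted p = 0.202, 0.261 and 0.255). In that comparison Rnf169, Ccnl1 and Colec12 passed. Rbbp8, Tnfrsf19 and 5330417C22Rik did not (adjusted p = 0.179, 0.0526 and 0.0603).

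Of the 7 other KLF genes, 3 passed the exonic filter and 1 was called. Klf1, the erythroid factor, had 1.70 and 1.23 scaled CPM in Hypox and 0.668 and 0.363 at 240 min, on 8 to 59 reads per library (-1.37 ± 0.34, adjusted p = 0.030). The Klf1 call was lost in 5 of 10 alternatives, with log2 fold changes of -1.74 to -0.70 over the 10. Leaving out either Hypox library or the shallower 240 min library ended it, and adjusted p reached 0.162. Of 5 red blood cell markers tested in exons none passed at 240 min, at log2 fold changes of -0.15 to 0.28, and the summed level of the 7 listed was 70.4 to 87.2 CPM in Hypox and 59.4 to 105 CPM at 240 min. In introns 2 were tested and Alas2 was lower at 240 min (-0.80 ± 0.21, adjusted p = 0.0316), with a summed intronic level of 4.55 to 5.46 CPM in Hypox and 2.96 to 2.98 CPM at 240 min. Their part in the Klf1 value was not tested. Klf14 and Klf17 had 0 reads in every library. Of 9 SP genes, the nearest relatives of the KLFs, 5 were tested in exons, with log2 fold changes of -0.87 to 0.24 at 240 min that did not pass. Sp4 was called lower in introns at 240 min (-1.09 ± 0.32, adjusted p = 0.0499). The 14 cofactors and ubiquitin ligases that work with KLFs, among them Sin3a, Ctbp1 and Wwp1, were all tested, and none passed in exons or introns in any comparison. Their exonic log2 fold changes at 240 min ran from -0.33 to 0.59, with a median of -0.13.

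Lists of genes that share inputs or outputs with the members gave mixed counts in exonic reads at 240 min. Of 10 glucocorticoid-induced genes, the chaperone gene Fkbp5 was higher (1.65 ± 0.32, adjusted p = 0.0107) and the tyrosine aminotransferase gene Tat lower (-1.11 ± 0.23, adjusted p = 0.0138), with a median of -0.35. The Fkbp5 and Tat calls were lost in 1 and 2 of 11 alternatives. In introns 3 of the 10 were called lower against Hypox at each of 30, 90 and 240 min, with medians of 0.05, -0.25 and -0.41. Tat and Pck1 were among them each time, with Pck1 at -3.12, -3.17 and -1.48. Intronic Fkbp5 was called higher at 90 min (2.01). Of 8 amino acid catabolism genes described as KLF15 targets, Tat and Bcat2 were lower in exons at 240 min, with a median of -0.38. At 30 and 90 min 0 of the 8 were called in exons. The Bcat2 call was lost in 3 of 11 alternatives. In introns 2 of the 8 were called lower at 30 min, 3 at 90 min and 4 at 240 min, with medians of -0.50, -0.76 and -0.80, while intronic Klf15 had changes of -1.08, -0.88 and 0.01. Those at 240 min were Aass, Tat, Tdo2 and Prodh. Intronic Tat was at -3.55 ± 0.24, -3.12 ± 0.24 and -1.44 ± 0.24 at the 3 times. Of 7 TGF-beta early response genes, Ski was higher at 90 and 240 min, calls that were lost in 4 and 1 of 11 alternatives. From 90 to 240 min, when Klf10 rose, Smad7 (1.23 ± 0.19, adjusted p = 0.00687) and Tgif1 (0.71 ± 0.18, adjusted p = 0.0462) were higher. Of 4 endothelial genes tested that are described as KLF2 or KLF4 targets, 0 were called in exons, and Vcam1 was lower in introns at 240 min (-1.22 ± 0.31, adjusted p = 0.0293). Of 2 thyroid hormone-induced genes tested 0 were called.

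Of 11 immediate early genes tested, Junb (-2.03 ± 0.17, adjusted p = 0.000306), Egr1 (-2.11 ± 0.42, adjusted p = 0.0126) and Fos (-2.00 ± 0.48, adjusted p = 0.0249) were lower at 240 min. Klf6 had -0.62 in that comparison and did not pass. The Egr1 and Fos calls were lost in 2 and 4 of 11 alternatives. Myc was higher at 30 and 90 min, by 3.30 ± 0.33 and 3.18 ± 0.33. Junb (-1.88), Myc (-2.15) and Btg2 (-0.76) were called lower from 90 to 240 min, when Klf6 had -1.20. Of 15 clock genes, Per3, Tef, Dbp and Hlf were lower and Cry1 was higher at 240 min, with log2 fold changes of -0.92 to 0.90 and a median of -0.22. The Per3, Tef and Dbp calls were lost in 1, 1 and 2 of 11 alternatives, and Hlf and Cry1 were not recomputed. From 90 to 240 min Per1 and Bhlhe41 were higher. Cry2 was lower at 90 min (-0.78 ± 0.14, adjusted p = 0.0371), a call that was lost in 6 of 11 alternatives, among them leaving out any of the 4 libraries (-0.83 to -0.74, with adjusted p up to 0.296). Whether any of these genes bears on the members was not tested.

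Of the cell types not covered above, only cholangiocytes had exonic markers called at 240 min against Hypox. Of 5 cholangiocyte markers tested, Spp1, Krt19 and Krt7 were called higher, calls that were lost in 2 of 11, 3 of 10 and 4 of 10 alternatives, and the summed level of the 6 listed was 7.18 to 9.90 CPM in Hypox and 14.5 to 22.9 CPM at 240 min. Of 10 Kupffer cell markers 0 were called in exons, but all were lower at 240 min, at log2 fold changes of -0.82 to -0.13 with a median of -0.45. Their sums were 72.5 to 91.5 CPM in Hypox and 50.6 to 71.6 CPM at 240 min. In introns 1 of 9 tested, Emr1, was called lower at 240 min (-0.85 ± 0.20, limma, adjusted p = 0.0220). Neutrophil markers summed to 2.13 to 2.77 CPM in Hypox, 4.06 to 6.01 at 90 min and 1.11 to 1.14 at 240 min. Lymphocyte markers summed to 2.79 to 3.49 CPM in Hypox and 2.27 to 2.78 at 240 min. Only 2 of the 9 neutrophil and 6 of the 7 lymphocyte markers were tested in exons. At 240 min 0 of them were called against Hypox. The neutrophil marker S100a8 was lower at 240 than at 90 min (-2.22 ± 0.56, limma, adjusted p = 0.0488). Which cells carried the Klf12 and Klf13 reads was not measured, and whether marker levels bear on their change was not tested.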

How the data were processed

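Total liver RNA, partly depleted of ribosomal RNA, was sequenced from 8 pooled libraries with a directional kit, per the labels. The deposited table gives FPKM over gene bodies and, in that unit too, a signal over introns, each a mean of the 2 libraries of a group, per the file headers. For each time against Hypox it also holds the authors' expression ratio, a signed fold change (unit: score) and an adjusted p-value, per the file headers. A further 4 columns repeat the Hypox means and were not used. TopHat2, featureCounts, edgeR and build mm9 are named in the submitters' processing notes, with no versions. Read assignment, strand use and p-value adjustment are not given in the sources used here.

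Whole reads per library were worked out from these means by arithmetic. This succeeded for all 18359 genes that have gene body reads, and with the totals moved by 1000 reads for 0 of 1000. In a simulation 1495 of 1500 genes came back exactly. No pool number is recovered, so libraries are named by depth. Reads were divided by mapped reads and by a factor (median of ratios, genes averaging 50 reads or more), and limma 3.58.1 (R 4.3.3) was run on log2(CPM + 0.1) with trended variance and the group as the only term. Fold changes on this scale understate low genes. The filter asked for 10 reads in 2 libraries and left 13169 genes in exons and 12034 in introns. Tests were two-sided, with 4 residual degrees of freedom and 6.51 from limma's prior in exons. Alternatives changed the scaling, the pseudocount, the filter, the groups fitted and the variance model (limma-voom), or left out each library in turn. List genes were recomputed only where called in exons against Hypox, up to 3 per list and comparison. Named genes are all members, up to 3 called genes of each list with the smallest p, and the 3 genes most like each called member. Klf14, Klf17, Hlf, Cry1 and other list genes beyond that rule were chosen after their values were seen. The members and gene lists were chosen with earlier results of these data known.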

Additional observations from a re-analysis of the deposited data

Results flagged for a closer look

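The change against Hypox differed between the 90 and 240 min groups, by the direct test of 240 against 90 min, for 5 of 10 members in exonic reads. Of all genes 5.26% differed. In intronic reads 2 of 8 members differed, where 11.6% of all genes did. With 1 library left out the count was 1 to 4 members in exonic and 1 to 2 in intronic reads. In exonic reads the log2 difference was -1.43 for Klf12, -1.20 for Klf6, -0.87 for Klf2, -0.78 for Klf13 and 1.04 for Klf10. In intronic reads it was -1.42 for Klf12 and -1.26 for Klf6. Both times share the Hypox libraries, which cancel in this difference.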

How the results depend on the processing

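Of 131 counts of called members recomputed, 116 stayed within 1.5 times. With the 2 groups fitted alone, 1 member was called in exons at 90 min and 2 in introns at 90 min. With library totals only, 1 was called in introns at 30 min and 0 at 90 min. With a filter of 50 reads, 1 was called in introns between 90 and 240 min. Leaving out a library gave 1 to 4 called members in exons between 90 and 240 min, 1 to 2 in introns for the same comparison, 0 to 1 in introns at 30 min and 0 to 0 in introns at 90 min. Of 1412 values of members and other named genes, 1318 kept their call, 84 lost it, 10 gained it and 0 called values changed sign, while 80 uncalled values did. The cause was not tested. The fall of Klf2 from 90 to 240 min was lost in 9 of 11 alternatives, and a Klf6 value at 240 min against Hypox passed in 3. With library totals only, the genes called at 240 min in exons split 917 higher to 487 lower, against 753 to 729, and in introns at 30 min 144 to 215, against 178 to 135, where the median of all genes shifted to -0.14. The introns at 90 against 30 min split 12 to 6, against 3 to 5, with a median of 0.17.

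No paired analysis was possible because the recovered libraries carry no pool number. Few reads limit Klf4 and Klf2, and intronic Klf6, Klf10 and Klf11. With 2 libraries a group, a member that missed the threshold is not shown to be unchanged.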
